A study of Rosa rugosa with 4 samples.

Results

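The plant cell wall is a network of cellulose, xyloglucan and pectin with structural proteins, and the enzymes that build and loosen it were followed here in Rosa rugosa, a garden rose, in its leaves and its petals. A member was any assembled transcript (contig) whose first database hit named Fragaria, Rosa, Prunus, Malus or Pyrus, which are genera of the rose family, and whose hit text held 1 of 13 wall words such as cellulose synthase, xyloglucan, expansin or polygalacturonase. Of 65535 contigs, 14514 had a first hit in these 5 genera and 162 of them were members. The members matched 102 database entries, 143 of the contigs having a Fragaria hit, 10 a Prunus hit, 5 a Rosa hit, 3 a Malus hit and 1 a Pyrus hit. The rule uses the annotation and no level.

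Cellulose synthases lay down cellulose at the cell surface, while xyloglucan and pectin are made in the Golgi by glycosyltransferases and then secreted. A growing wall is loosened without cutting by expansins, reshaped by xyloglucan endotransglucosylase/hydrolases, and opened by pectinesterases, polygalacturonases and pectate lyases, which act on pectin. In rose petals such enzymes have been studied in opening, when the cells expand, and in shedding.

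Total RNA, depleted of ribosomal RNA, was sequenced from greenhouse plants that had received no treatment, in 2 leaf libraries and 2 petal libraries, named leaf 1, leaf 2, petal 1 and petal 2. No label gives plant age or flower stage, or ties replicate libraries to different plants, so p-values measure the spread between these libraries, which may be technical. Levels are FPKM, in which fragments are divided by contig length and by mapped depth, or, for sums over contigs, FPM (fragments per 1000000 mapped fragments). The number of fragments behind each value was read from the steps between the lowest FPKM values at each contig length. In bulk tissue, fewer cells of a type and less RNA per cell cannot be told apart.

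The 4 libraries had 18600000 to 26600000 mapped fragments, of which the contigs of the table took 0.799% to 2.93%. First hits of the 5 genera held 77.0% to 79.4% of the table's fragments in leaf 1, leaf 2 and petal 1, and 19.7% in petal 2, the library that stood apart. In petal 2, hits to the fungi Botrytis, Botryotinia (both grey mould) and Sclerotinia together came to 8172 FPM, against 2.96 to 7.02 elsewhere. Pea aphid hits came to 776 and 1006 FPM in the petal libraries against 24.6 and 29.3 in leaf. Hits to the leaf spot fungus Marssonina went the other way, with 352 and 190 FPM in leaf against 1.50 and 47.6 in petal. The 24 contigs matching the petal words summed to 203 and 27.2 FPM in petal against 0.863 and 1.43 in leaf. That difference was the scent enzyme NUDX1 on 2 contigs (203 and 20.7 FPM in petal, 0.413 and 0.0499 in leaf), and without it the list came to 0.450 and 1.38 FPM in leaf and 0.377 and 6.54 in petal, which overlap. The 15 contigs matching the leaf words (photosystem, chlorophyll a-b binding and Rubisco) summed to 2.03 and 2.37 FPM in leaf and to 5.48 and 2.15 in petal. Their sum thus did not separate the tissues in this table. Most of it lay on 2 chlorophyll a-b binding contigs, TR146068|c0_g1_i1 (14, 13, 68 and 32 fragments) and TR115506|c0_g1_i1 (17, 17, 30 and 15). The remaining detected contigs held few fragments each, mostly more in leaf. Among them TR131107|c0_g1_i1 had 2 fragments, in petal 2 alone, and TR19760|c0_g1_i1 had 1 each in leaf 2 and petal 2. Rosaceous hits summed to 5776 to 9538 FPM, highest in petal 1, and member levels are given without correction for this unless stated.

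The members were weakly covered. The table holds part of a larger assembly, so few fragments here need not mean low expression of a gene. Together they held 649 fragments over the 4 libraries, 88 of the 162 (54.3%) were listed at 0 in every library, and 15 had a single fragment. Among all contigs of the 5 genera 45.8% were listed at 0 in every library. Length went with detection. The members' median length was 258.5 nt (range 174 to 1131), against 269 nt for the 5 genera. All 30 members under 200 nt were at 0, as were 33 of 44 from 200 to 249 nt (75%, against 73.5% in the 5 genera), 20 of 38 from 250 to 299 nt (52.6% against 41.9%) and 5 of 50 from 300 nt up (10% against 11.4%). A value of 0 therefore says little about a short contig. At least 10 fragments were found on 15 members and at least 20 on 8 (4.94%, against 7.99% of the 5 genera).

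A high FPKM was often a handful of fragments. On a short contig 1 fragment is worth many FPKM, and of the 19 members that reached 10 FPKM in a library, 12 rested on 5 fragments or fewer and 2 on a single one. The clearest cases belonged to pectin and glucan cutting. A contig of probable pectate lyase 3 (TR132396|c0_g1_i1, 201 nt) read 42.31 FPKM in petal 1, which was 1 fragment, and 0 in the other libraries. An endoglucanase 4-like contig (TR144756|c0_g1_i1, 215 nt) read 43.52 FPKM in petal 1 from 2 fragments, and 0 elsewhere. Because of this, the text below gives fragments beside FPKM, and levels are compared between contigs only with both in view.

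**Figure D1:**
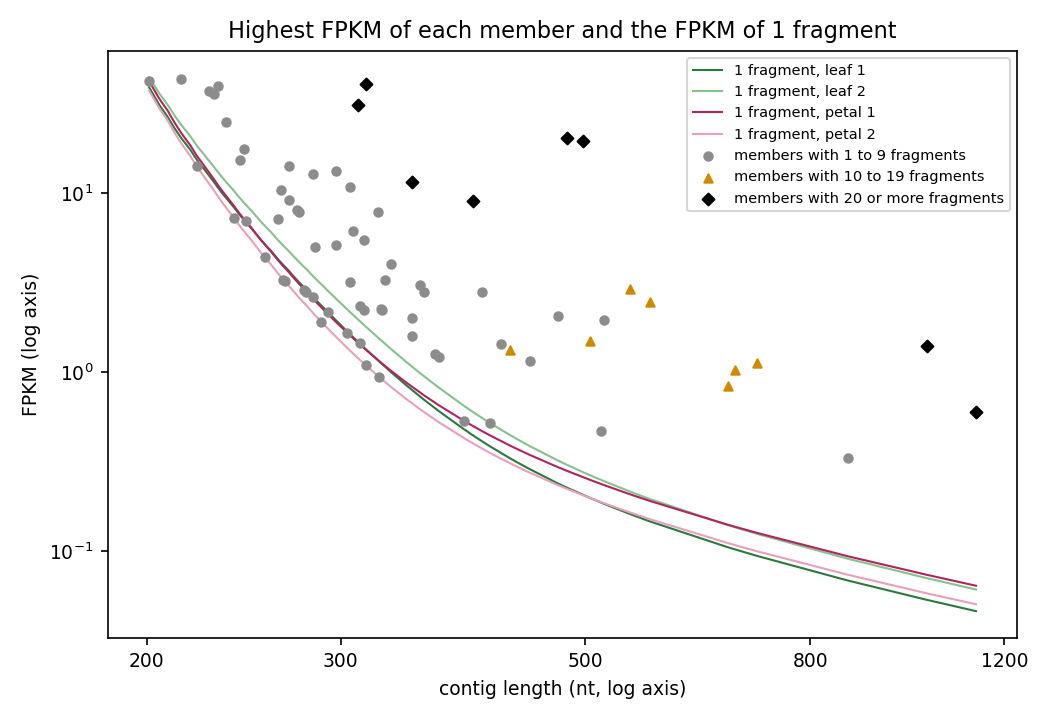
Highest FPKM of each of the 74 members with a fragment (points, both axes logarithmic) against contig length in nucleotides, with curves for the FPKM that 1 fragment is worth in each library. Near 200 nt a single fragment reads above 30 FPKM, and 5 of the 8 members with at least 20 fragments (black) are among the points above 10 FPKM.

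The question that the study's design puts to these genes is which differed between leaf and petal. No member passed either test. In the limma test over contigs whose mean and SD both reached 10 FPKM, 24 of 2157 contigs were called at an adjusted p under 0.05 (1.11%), and 0 of the 4 members that entered. Those 4 were both contigs of a cellulose synthase-like protein G2 and the pectate lyase and endoglucanase contigs just described, with Benjamini-Hochberg adjusted p of 0.515 to 0.702. In the same limma test over the 5211 contigs with at least 20 fragments, 0 were called (0%), with 307 at an unadjusted p under 0.05, and limma-voom on the recovered fragments likewise called 0, with 174 unadjusted. Of the 8 members tested there 1 had an unadjusted p under 0.05, the G2 contig TR102257|c0_g2_i1. An exact permutation test of 2 libraries against 2 cannot go below a p of 1 in 3.

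The direction of the 8 better covered members was described by overlap. In 4 of the 8 both petal libraries lay above both leaf libraries (3 of 8 when scaled to an equal FPKM sum), and in 0 of 8 both leaf libraries lay above both petal libraries. Over all 5211 contigs with at least 20 fragments, other organisms included, these shares were 16.9% and 13.3%, and over the 1160 with a first hit in the 5 genera they were 27.2% and 22.6%. The 4 members higher in petal had at most 4 fragments in any leaf library. They thus passed the filter of 20 fragments through the petal libraries, and their count is not independent of that filter. The median log2 difference of FPKM + 1, coded as petal minus leaf, was 1.17 over the 8 members, 0.80 over the 5211 contigs and 0.10 over the 1160 of the 5 genera. Over the 74 members with at least 1 fragment, 9 were higher in the petal pair and 6 in the leaf pair, against 12.3% and 10.7% of the 7861 contigs of the 5 genera, so these counts lay near the background.

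**Figure D2:**
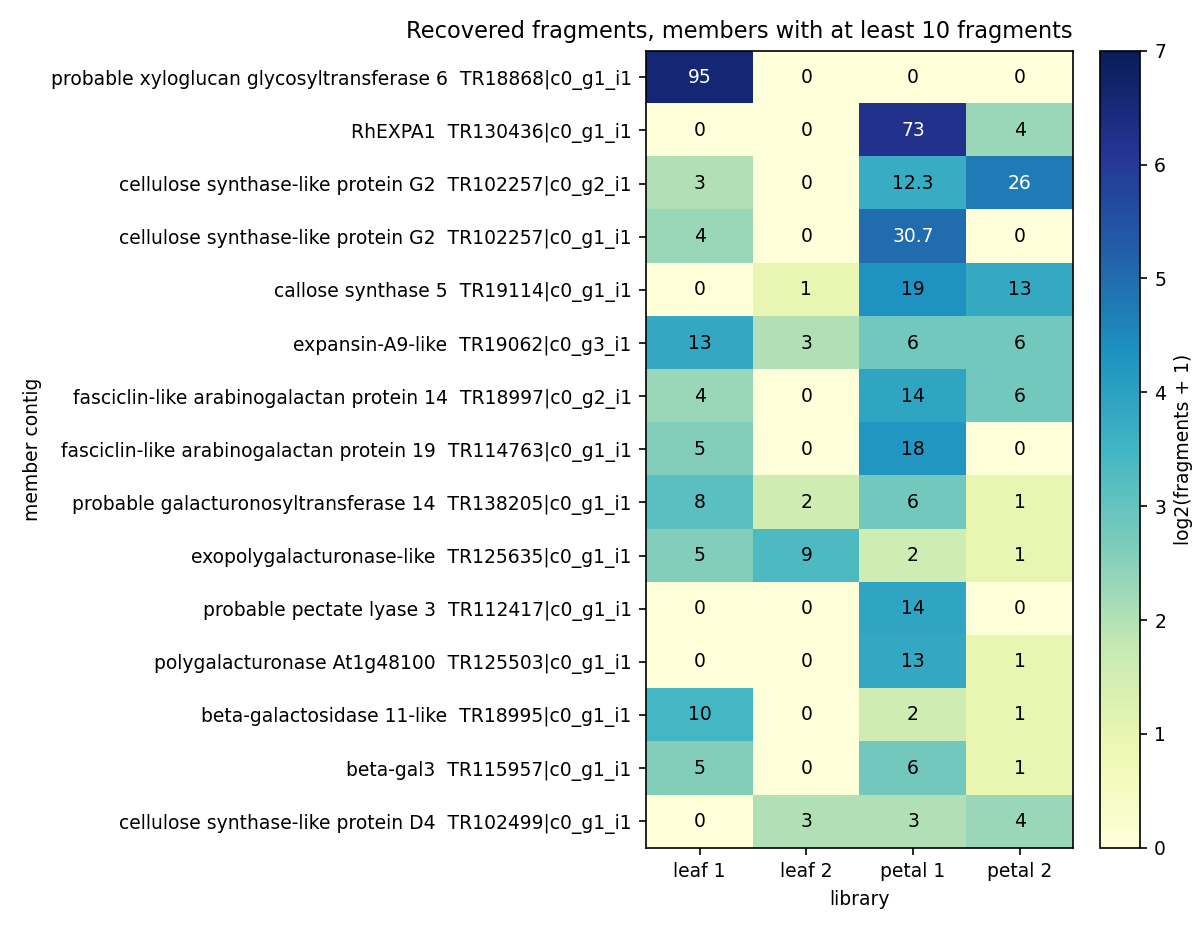
Recovered fragments of the 15 members with at least 10 fragments (rows, most covered first) in each library (columns), with color giving log2(fragments + 1). The top row stands on leaf 1 alone, with 95 fragments, and RhEXPA1 and callose synthase 5 are petal rows with at most 1 leaf fragment each.

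Cellulose synthases and their relatives made up 29 contigs of 14 entries. The class held 17 fragments in leaf 1 and 16 in leaf 2, against 51 in petal 1 and 42 in petal 2. In FPM this was 0.639 (95% exact Poisson interval 0.372 to 1.02) and 0.790 (0.452 to 1.28) in leaf, and 2.74 (2.04 to 3.60) and 1.77 (1.28 to 2.40) in petal. Both petal libraries were thus above both leaf libraries, although the intervals of leaf 2 and petal 2 met at 1.28. These intervals cover counting error only and leave out the spread between libraries. The reads carried no molecular identifiers, so duplicate reads of a molecule were not told apart.

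The class difference came from 1 Trinity component, the cellulose synthase-like protein G2 (TR102257), a relative of the cellulose synthases. It had a pair of contigs that matched the same entry. Contig TR102257|c0_g1_i1 (316 nt) read 5.37 and 0 FPKM in the leaf libraries and 41.02 and 0 FPKM in petal 1 and petal 2. Contig TR102257|c0_g2_i1 (311 nt) read 4.42, 0, 17.91 and 31.06 FPKM in the same order. The first was high in petal 1 alone with its tissues overlapping, and the second was higher in both petal libraries. In petal 1 they held 30.7 and 12.3 fragments, neither a whole number, and together 43, as when reads are shared out between similar contigs, so their split is uncertain. Summed, the component had 7, 0, 43 and 26 fragments in leaf 1, leaf 2, petal 1 and petal 2, or 0.263, 0, 2.31 and 1.10 FPM, with no overlap between tissues. The log2 difference was 1.36 (SE 2.20, limma adjusted p = 0.654) for the first contig and 3.40 (SE 1.12, adjusted p = 0.469) for the second, whose mean FPKM was 11.1-fold higher in petal. The first contig turned to -1.34 without petal 1, and the second lay between 2.18 and 4.62 with any 1 library left out.

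Without this component the other 27 contigs of the class held 10, 16, 8 and 16 fragments in leaf 1, leaf 2, petal 1 and petal 2, which overlap between the tissues. The catalytic subunits that make cellulose itself (CesA) were 9 contigs, 8 of them at 0, and the remaining one, of subunit 3 (TR20216|c0_g1_i1), had 1 fragment in each library. Cellulose synthase-like D proteins, which in Arabidopsis serve tip-growing cells, had 3, 6, 5 and 7 fragments on 10 contigs. The most covered of these, CslD4 (TR102499|c0_g1_i1), read 0, 1.33, 1.17 and 1.24 FPKM, that is 0, 3, 3 and 4 fragments. The 5 cellulose synthase-like E contigs had 4, 8, 0 and 5 fragments, and the 3 cellulose synthase-like H contigs 2, 1, 2 and 3. Leaf and petal overlapped in the CesA, D and E groups. The H group stood at 0.0750 and 0.0492 FPM in leaf and 0.107 and 0.127 in petal, without overlap but from at most 3 fragments a library.

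Callose synthases make the glucan callose, found at plasmodesmata, in wounded walls and around developing pollen. The member matching callose synthase 5 (TR19114|c0_g1_i1, 1020 nt), whose Arabidopsis counterpart is needed for the callose wall of pollen mother cells, read 0 and 0.07 FPKM in the leaf libraries and 1.40 and 0.75 FPKM in petal 1 and petal 2. These values were 0, 1, 19 and 13 fragments, with both petal libraries above both leaf libraries. Pooled by tissue, 32 petal fragments against 1 in leaf gave a ratio of 35.5 at equal depth, with an exact 95% interval of 5.92 to 1444 that covers counting error only. The log2 difference of FPKM + 1 was 0.99 (SE 0.50, limma adjusted p = 0.469), between 0.76 and 1.21 with any 1 library left out. At so low a level it depended on the scale, at 3.11 with a pseudocount of 0.1, 0.14 with a pseudocount of 10 and 4.34 with limma-voom. The whole class of 5 contigs, 3 of them at 0, had 0, 1, 19 and 14 fragments, or 0 and 0.0491 FPM in leaf and 1.02 and 0.589 in petal. The 13 contigs of the pollen and anther words, 6 of them at 0, summed to 0.827 and 0.544 FPM in leaf and to 1.45 and 0.633 in petal. Those sums overlap between tissues and were highest in petal 1, as callose synthase 5 was. Within the list the 5 pollen receptor-like kinase contigs had 0 fragments in both leaf libraries and 18 and 9 in petal 1 and petal 2, while a pollen-specific SF3-like contig (TR116800|c0_g1_i1) had 20, 8, 9 and 5 fragments, most of the leaf signal. Their part in the callose synthase 5 difference was not tested.

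**Figure D3:**
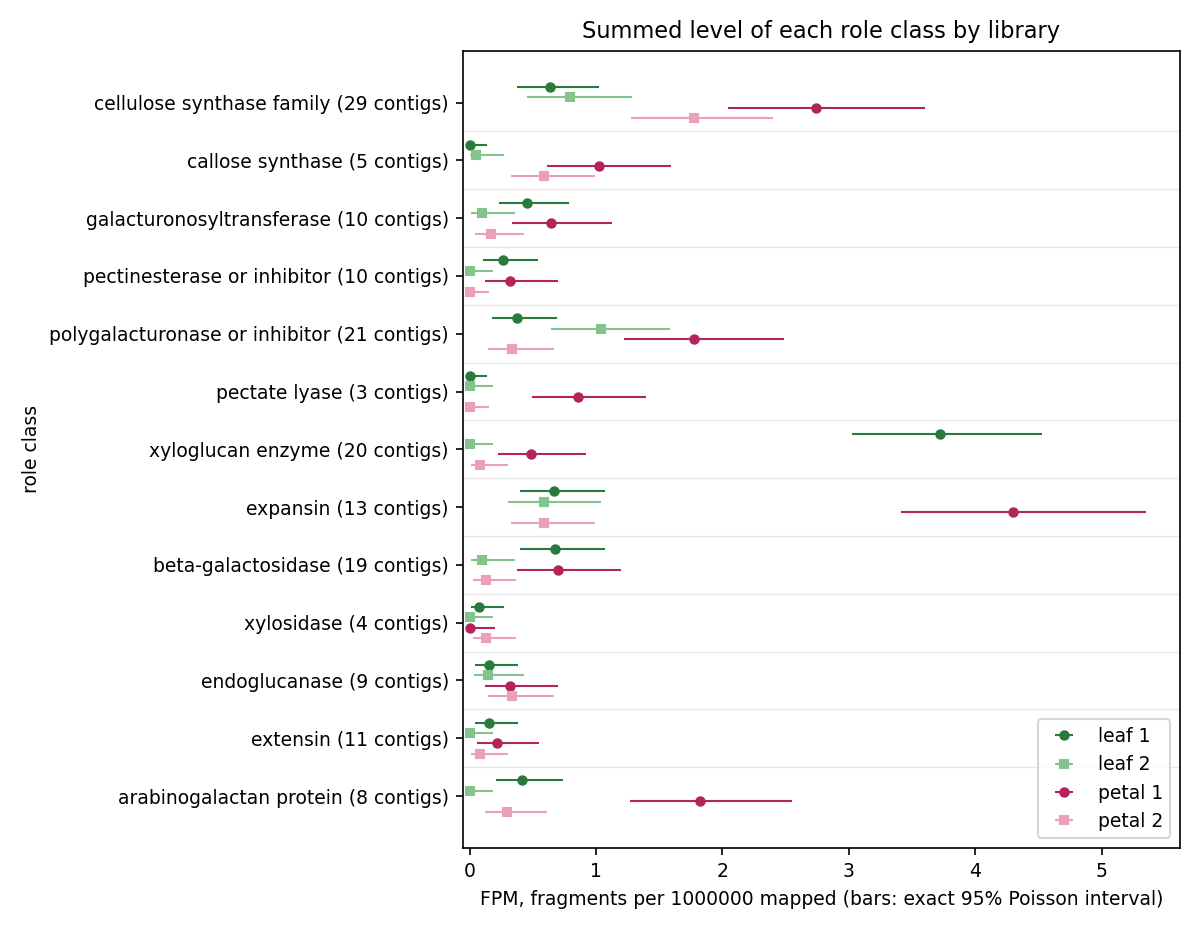
FPM of each role class (rows, number of contigs in brackets) in the 4 libraries, with bars for exact 95% Poisson intervals that cover counting error only. The petal points of the cellulose synthase family and of callose synthase lie above their leaf points, while the xyloglucan point of leaf 1 and the expansin point of petal 1 each stand alone and rest on 1 contig.

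Xyloglucan, the hemicellulose that ties cellulose fibrils, was represented by 20 contigs, 16 of them at 0. The most covered member of all was a probable xyloglucan glycosyltransferase 6 (TR18868|c0_g1_i1, 498 nt), of the enzyme group that builds the glucan backbone of xyloglucan. It read 19.49 FPKM in leaf 1, from 95 fragments, and 0 in leaf 2, petal 1 and petal 2. Leaf 1 was high and its replicate was at 0, so leaf overlapped petal. The log2 difference was -2.18 (SE 1.62, limma adjusted p = 0.469), and against a floor of 3 fragments over both petal libraries the leaf mean was at least 28.5-fold higher. Leaving out leaf 1 left no fragment in any library, so the fold rests on that library alone. The other contigs matching the same entry, on component TR14001, were at 0 everywhere.

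Without that contig the class had 4, 0, 9 and 2 fragments in leaf 1, leaf 2, petal 1 and petal 2, all on xyloglucan endotransglucosylase/hydrolases (XTH), which cut and rejoin xyloglucan chains. Of 14 XTH contigs 11 were at 0. An XTH 24-like contig (TR12742|c0_g2_i1) had 0, 0, 7 and 1 fragments, and an XTH 32 contig (TR17857|c0_g1_i1) had 4, 0, 2 and 0. The first was found in petal alone and the second in the first library of each tissue.

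Expansins loosen the wall in acid without cutting it. The contig matching RhEXPA1, an alpha expansin cloned from a rose cultivar (TR130436|c0_g1_i1, 481 nt), read 0 FPKM in leaf 1 and leaf 2, 20.47 in petal 1 and 0.89 in petal 2. These were 0, 0, 73 and 4 fragments, so both petal libraries were above both leaf libraries while differing widely from each other. The log2 difference was 2.67 (SE 1.35, limma adjusted p = 0.469). Against a floor of 3 fragments over both leaf libraries the petal mean was at least 27.5-fold higher, falling to at least 2.29-fold without petal 1 and reaching at least 52.7-fold without petal 2. Without petal 1 or without petal 2 the adjusted p passed the threshold (1.41e-17 and 7.83e-06), in fits where the equal zeros of the leaf libraries were the contig's whole replicate spread. A further contig of this entry (TR131593) had 1 fragment, in petal 2.

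The next expansin had no such pattern. The expansin-A9-like contig TR19062|c0_g3_i1 (1131 nt), the longest member, read 0.60 and 0.18 FPKM in the leaf libraries and 0.38 and 0.30 FPKM in petal 1 and petal 2. That was 13, 3, 6 and 6 fragments, with the petal values between the leaf values. Its log2 difference was -0.04 (SE 0.48, limma adjusted p = 0.964). Its companion TR19062|c0_g2_i1 read 0.33 and 0.18 FPKM in leaf and 0 in petal. Without TR130436|c0_g1_i1 the 12 other expansin contigs, TR131593 among them, had 18, 12, 7 and 10 fragments in leaf 1, leaf 2, petal 1 and petal 2. These sums were higher in both leaf libraries, but the exact Poisson intervals of leaf and petal overlapped. With TR130436|c0_g1_i1 the class had 18, 12, 80 and 14 fragments. An expansin-B2 contig (TR12995|c0_g1_i1), of the beta expansins, had 5 fragments, all in leaf 2.

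Pectin is made by galacturonosyltransferases (GAUT), which polymerise galacturonic acid. The 10 contigs of this class, 6 of them at 0, had 12, 2, 12 and 4 fragments in leaf 1, leaf 2, petal 1 and petal 2. Probable galacturonosyltransferase 14 (TR138205|c0_g1_i1) read 0.84, 0.28, 0.84 and 0.11 FPKM, or 8, 2, 6 and 1 fragments, equal in leaf 1 and petal 1 and lower in both other libraries. Galacturonosyltransferase-like 9 (TR12457), on a pair of contigs, had 0, 0, 6 and 3 fragments and was seen in petal alone.

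Pectinesterases remove methyl groups from pectin and so prepare it for cutting or stiffening. Their 10 contigs, inhibitors included, had 7, 0, 6 and 0 fragments in leaf 1, leaf 2, petal 1 and petal 2, with 7 contigs at 0. A combined pectinesterase and inhibitor 51 contig (TR127534|c0_g1_i1) held the 6 petal 1 fragments, and an inhibitor-like contig (TR18383|c0_g2_i1) held 4 in leaf 1. Neither was found in the replicate of its tissue.

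Polygalacturonases cut the pectin backbone and act in organ shedding and softening. Their 21 contigs, 1 inhibitor protein included, had 10, 21, 33 and 8 fragments in leaf 1, leaf 2, petal 1 and petal 2. In FPM this was 0.375, 1.04, 1.77 and 0.338, so the tissues overlapped. Single contigs in the class went different ways. A contig of polygalacturonase At1g48100 (TR125503|c0_g1_i1) read 0 FPKM in both leaf libraries, 2.47 in petal 1 and 0.15 in petal 2, or 13 fragments and 1. A further contig of the same entry (TR105252|c0_g1_i1) had 3, 0, 3 and 0 fragments. Summed, the entry came to 0.112, 0, 0.859 and 0.0421 FPM, so leaf 1 lay above petal 2 and the tissues overlapped. A contig matching another entry of that name (TR102543|c0_g1_i1) read 0.18 and 1.96 FPKM in leaf and 0 in both petal libraries, from 1 and 8 fragments. An exopolygalacturonase-like contig (TR125635|c0_g1_i1), whose product trims pectin from chain ends, read 0.47, 1.12, 0.25 and 0.10 FPKM, or 5, 9, 2 and 1 fragments. It was the only member with at least 10 fragments that was higher in both leaf libraries.

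Pectate lyases cut unmethylated pectin by elimination. All 3 contigs matched probable pectate lyase 3, and all 16 of their fragments lay in petal 1. The longest (TR112417|c0_g1_i1, 549 nt) read 2.90 FPKM there, from 14 fragments, and 0 in leaf 1, leaf 2 and petal 2. Petal 2, with 0 fragments and an exact Poisson upper limit of 0.156 FPM for the class, lay below the 0.859 FPM of petal 1, so the difference within petal was larger than counting error.

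Beta-galactosidases trim galactose side chains of pectin and xyloglucan. The 19 contigs, 13 of them at 0, had 18, 2, 13 and 3 fragments in leaf 1, leaf 2, petal 1 and petal 2, so the first library of each tissue was high and the second low. A beta-galactosidase 11-like contig (TR18995|c0_g1_i1) read 1.02, 0, 0.27 and 0.11 FPKM from 10, 0, 2 and 1 fragments. The strawberry beta-gal3 contig (TR115957|c0_g1_i1) read 0.99, 0, 1.50 and 0.20 FPKM from 5, 0, 6 and 1 fragments. The tissues overlapped in both.

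The remaining trimming enzymes had few fragments in this table. Endoglucanases, which cut glucan chains, had 4, 3, 6 and 8 fragments on 9 contigs in leaf 1, leaf 2, petal 1 and petal 2. Xylosidases had 2, 0, 0 and 3 on 4 contigs, all on alpha-xylosidase 2, which takes xylose from xyloglucan. The endoglucanase sums were higher in petal, but the exact Poisson intervals of leaf and petal overlapped in both classes. No difference between tissues was detectable at this coverage.

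The wall's structural proteins were extensins and arabinogalactan proteins. The 11 extensin contigs, mostly leucine-rich repeat extensins, had 4, 0, 4 and 2 fragments, with 8 contigs at 0. The 8 arabinogalactan contigs had 11, 0, 34 and 7 fragments, all on fasciclin-like arabinogalactan proteins, which sit at the cell surface. Fasciclin-like arabinogalactan protein 14 (TR18997|c0_g2_i1, 348 nt) read 3.18 and 0 FPKM in the leaf libraries and 11.60 and 4.01 FPKM in petal 1 and petal 2, or 4, 0, 14 and 6 fragments. Both petal libraries lay above both leaf libraries, petal 2 by the smaller margin. Scaled to an equal FPKM sum the order was lost, with 2.23 in petal 2 below 4.32 in leaf 1. Its log2 difference was 1.96 (SE 1.08, limma adjusted p = 0.469), between 0.93 without leaf 2 and 2.99 without leaf 1, and its mean FPKM was 4.91-fold higher in petal.

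Fasciclin-like arabinogalactan protein 19 (TR114763|c0_g1_i1, 395 nt) read 2.22, 0, 9.01 and 0 FPKM, or 5, 0, 18 and 0 fragments. It was found in the first library of each tissue and not in the second. The log2 difference was 0.82 (SE 1.42, limma adjusted p = 0.678), and it turned to -0.03 without leaf 2 and to -0.84 without petal 1.

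The library a member was found in was as uneven as its level. Of the 162 members 32 had a fragment in leaf 1 (19.8%) and 19 in leaf 2 (11.7%), while 40 had one in petal 1 (24.7%) and 37 in petal 2 (22.8%). For the 5 genera the shares were 26.0%, 22.6%, 27.1% and 27.7%, so leaf 2 was the library in which members were fewest beside their background. Of the 74 members found at all, 38 were in 1 library, 23 in 2, 8 in 3 and 5 in all 4. Among the 23 seen in 2 libraries, 11 were in both libraries of 1 tissue, 6 in petal and 5 in leaf, and 8 were in leaf 1 and petal 1. The leaf 1 and petal 1 pair was 34.8% of the 23 members and 25.2% of the 2237 contigs of the 5 genera seen in 2 libraries, while leaf 2 and petal 1 was 0% of the members and 5.41% of those contigs.

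**Figure D4:**
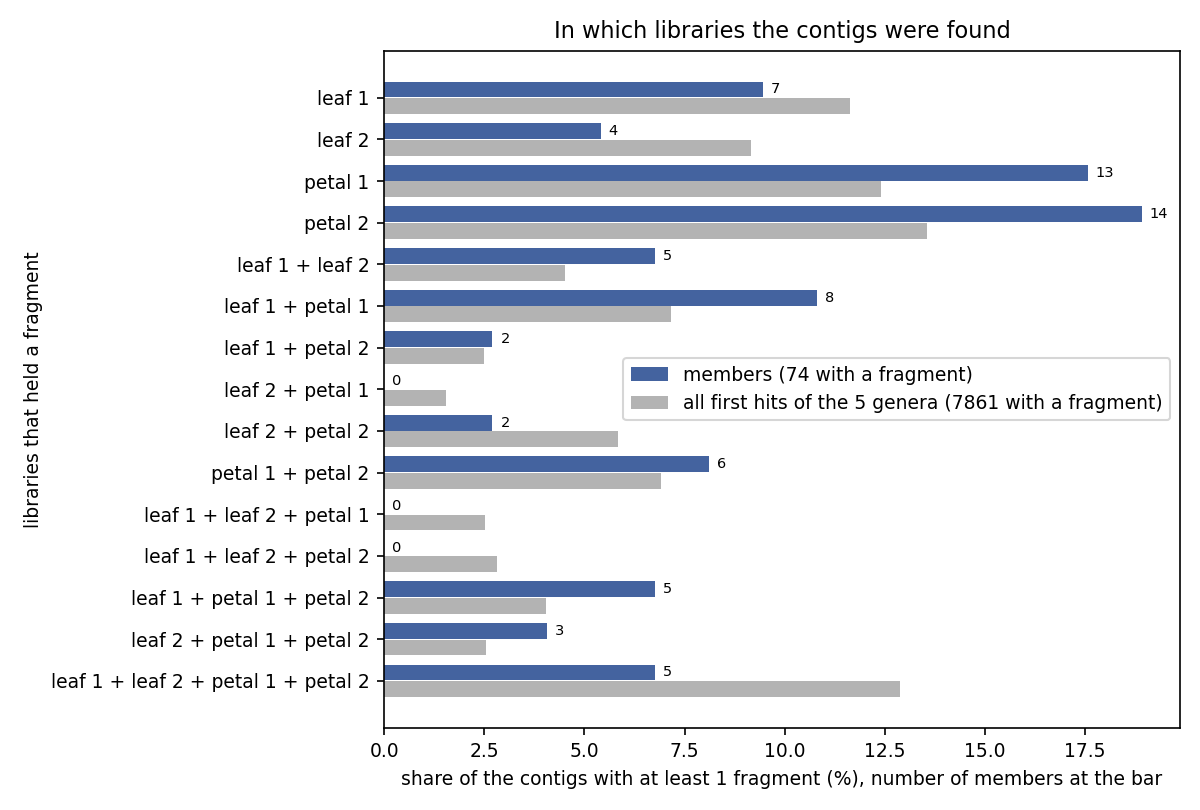
Share of contigs with at least 1 fragment (x axis, percent) by the libraries that held one (rows), for the 74 members with a fragment and the 7861 such contigs of the 5 genera, with the number of members at each bar. Members found in petal 1 alone (13) or petal 2 alone (14) are the longest bars, and 5 members were found in all 4 libraries.

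Summed over all members, 202, 57, 283 and 107 fragments lay in leaf 1, leaf 2, petal 1 and petal 2, which was 7.58, 2.81, 15.2 and 4.52 FPM. The highest library was petal 1 and the lowest leaf 2, with leaf 1 above petal 2, so the tissues overlapped. Without the xyloglucan glycosyltransferase contig leaf 1 came to 4.01 FPM (95% exact Poisson interval 3.29 to 4.86), against 4.52 (3.70 to 5.46) in petal 2. Leaving out the RhEXPA1 contig instead gave 7.58, 2.81, 11.3 and 4.35 FPM, with leaf 1 still above petal 2. As a share of the fragments of the 5 genera the members took 0.113%, 0.0457%, 0.159% and 0.0782%, in the same order of libraries. Scaled to equal fragments of the 5 genera, the cellulose synthase family was at 0.669 and 0.905 in leaf and 2.03 and 2.17 in petal. Callose synthase was at 0 and 0.0562 in leaf and 0.756 and 0.719 in petal. Both kept their order between tissues under this scaling. An equal FPKM sum multiplies leaf 2 by 1.341 and petal 2 by 0.5571. From 0.790 FPM in leaf 2 and 1.77 in petal 2, the cellulose synthase family then falls lower in petal 2 than in leaf 2.

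Other wall genes of the same 5 genera, taken by words such as laccase, wall-associated, pectin acetylesterase and trichome birefringence, were 145 contigs, 57 of them at 0 and 17 with at least 20 fragments. None was called in the fragment-based test, where 0 of all 5211 contigs were. Of the contigs of the 5 genera with at least 20 fragments, 27.2% were higher in the petal pair and 22.6% in the leaf pair. Of the 17, 3 were higher in the petal pair and 5 in the leaf pair. Each of these held most of its fragments in the tissue where it was higher, so these counts too are not independent of the filter. The 3 were the xylan enzyme IRX7 (TR12356|c0_g1_i1, with 0.54, 0.36, 2.86 and 0.78 FPKM), a pectin acetylesterase 8-like contig (TR110351|c0_g1_i1, with 3.06, 0, 31.74 and 45.88 FPKM) and trichome birefringence-like 34 (TR13073|c0_g2_i1, with 0.28, 0.57, 4.25 and 1 FPKM). The 5 higher in leaf were all wall-associated receptor kinases, which bind pectin at the cell surface. Laccases, which polymerise lignin, summed to 0.783, 1.63, 9.62 and 1.39 FPM over 25 contigs, high in petal 1 alone.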

How the data were processed

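Per the labels and the methods of the study, total RNA depleted of ribosomal RNA was sequenced on an Illumina instrument, reads of the 4 libraries were assembled together with Trinity, contigs were searched against NCBI databases, and the authors estimated abundance with RSEM and bowtie. The deposited values are FPKM per contig and library, with 2 decimals. The table holds 65535 contigs of a larger assembly, and the rest was not analysed here. No genome was used, so contigs have no coordinates, and no contig sequence was available to print. The authors used edgeR. FPKM are not counts, so limma (3.58.1, R 4.3.3) with a variance trend was run on log2(FPKM + 1) with tissue as the term, two-sided, with Benjamini-Hochberg adjustment over all contigs that passed either a mean and SD of 10 FPKM or at least 20 fragments. The log scale understates changes of low contigs.

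Fragments were recovered from the FPKM steps with a smooth function of contig length (Python 3.11.15, scipy 1.17.1). Of values on contigs under 800 nt that came to at most 10 fragments, 98.1% to 98.4% per library lay within 0.1 of a whole number. The recovery and the limma step were tested on simulated data. Splits by RSEM between similar contigs leave fractions, and on contigs over 800 nt the 2 decimals limit the fragment number. FPM values have exact 95% Poisson intervals, and a fold against libraries at 0 used a floor of 3 fragments over those libraries.

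Members and lists were chosen with earlier results of these data known. Contigs were named by rule where called in a test, or, among members with at least 20 fragments, where among the 3 highest mean FPKM of a role class or the 5 highest or lowest log2 differences. Other members, and the other wall contigs, were named after their values were seen. Alternatives were pseudocounts of 0.1 and 10, scalings, filters, variance priors, a replicate block, limma-voom and leaving out each library. Class sums without the leading contig and scaled class sums were added, with the split of the marker lists by gene, after seeing the data.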

Additional observations from a re-analysis of the deposited data

How the results depend on the processing

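No contig call bears on a member by either main test, and the counts depended on the settings. With the FPKM filter the 24 calls became 10 with an equal FPKM sum per library, 0 without the variance trend, 112 with limma-voom, 9 where the mean had to reach 1 FPKM and 430 with no filter, and 305 to 810 with 1 library left out, where an arm of 1 library is assumed to vary like the other. The split of higher in petal to higher in leaf was 14 to 10, 9 to 10 with equal rosaceous fragments, 5 to 5 with an equal FPKM sum and 102 to 10 with limma-voom. Without petal 2, 2 members were called, the pectate lyase and endoglucanase contigs of 1 and 2 fragments, both with an adjusted p of 0.0167, and under the other settings 0 were. With the fragment filter the 0 calls became 1 at 50 fragments, 1 with rosaceous hits alone, and 0 to 3123 with 1 library left out, 3123 without petal 1 and 449 without petal 2, each with 1 member, RhEXPA1. Members higher in both petal libraries, 4 of 8, were 1 of 2 at 50 fragments, 3 of 8 with an equal FPKM sum (fasciclin-like arabinogalactan protein 14 was lost) and 4 to 6 of 8 with 1 library left out. Members higher in both leaf libraries, 0 of 8, were 1 of 15 at 10 fragments and 0 to 2 of 8 with 1 library left out.

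The replicate numbers are shared by the tissues but no label says that they pair the libraries. With 2 pairs, the correlation of the replicate differences was 0.321 over the 5211 contigs and 0.499 over the 1160 rosaceous ones. The replicate block gave 51 calls with the FPKM filter, none a member, and 140 with the fragment filter, 1 a member, the cellulose synthase-like G2 contig TR102257|c0_g2_i1 (adjusted p = 0.0341).

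With 1 library left out the log2 difference ran from -1.34 to 4.06 for TR102257|c0_g1_i1, from -0.84 to 2.48 for fasciclin-like arabinogalactan protein 19 and from -0.26 to 0.18 for expansin-A9-like. Of the 80 alternative values of the 8 named members, 5 changed sign, all with 1 library left out, at -1.34 for TR102257|c0_g1_i1 without petal 1, -0.03 and -0.84 for fasciclin-like arabinogalactan protein 19 without leaf 2 and petal 1, and 0.18 and 0.01 for expansin-A9-like without leaf 1 and petal 2. The cause was not tested. Scaling moved the median of all 5211 contigs from 0.80 to 0.87 with equal rosaceous fragments and 0.55 with an equal FPKM sum. Coverage in this table limits the rest, since 147 of the 162 members had fewer than 10 fragments. The contigs of the table took 0.799% to 2.93% of the mapped fragments.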

Other observations

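The same wall words also matched 21 contigs whose first hit lay outside the 5 genera, 8 of them listed at 0. They summed to 1.62 and 0.0987 FPM in leaf 1 and leaf 2, 8.22 in petal 1 and 438.5 in petal 2, against 7.58, 2.81, 15.2 and 4.52 for the 162 rosaceous members. Nearly all of the petal 2 sum was endopolygalacturonase 1 (BcPGA1) of the grey mould fungus Botryotinia (TR19366|c0_g1_i1), an enzyme with which the fungus cuts host pectin. It read 0 FPKM in leaf 1, leaf 2 and petal 1 and 381.22 FPKM in petal 2, from 10125 fragments. The 21 rosaceous contigs of the polygalacturonase class, 1 inhibitor included, held 8 fragments in that library. Among the contigs of this table, polygalacturonase fragments in petal 2 were thus mostly fungal by first hit. These contigs took 2.93% of that library's mapped fragments, and the rest of the assembly was not analysed here.

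Of the 21, 10 had a first hit to the pea aphid Acyrthosiphon, named after extensins and beta-galactosidases. One, labelled a pollen-specific leucine-rich repeat extensin-like protein (TR18801|c0_g1_i1), read 0.91, 0, 5.53 and 7.05 FPKM in leaf 1, leaf 2, petal 1 and petal 2, from 32, 0, 139 and 225 fragments. It was higher in both petal libraries, as the aphid hits as a whole were, and its product name is that of a plant wall protein.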
